A study of Mus musculus with 12 samples.

Results

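Expression of 10 genes that restrain the cell cycle or belong to the p53 response was followed in mouse CD8+ T cells: 5 CDK inhibitors (Cdkn1a, Cdkn1b, Cdkn2a, Cdkn2c and Cdkn2d) and 5 p53-linked genes (Trp53inp1, Plk2, Ccng1, Mdm2 and Trp73). They were chosen by name, and all 10 had a row in both deposited count tables, among 13625 gene symbols that the tables shared. The cells came from the spleens of OT-I mice, whose transgenic T cell receptor recognises a chicken ovalbumin peptide, and RNA was sequenced in bulk in 4 groups of 3 libraries. All groups were expanded with antibodies to CD3e and CD28 and with IL-2, kept for 5 more days, and then placed for 72 h with GL261 glioma cells that express chicken ovalbumin, at 1% oxygen. ATRA cells received all-trans retinoic acid at 5 ng/mL during expansion only, and CTRL cells received the solvent DMSO at that stage. Restimulated ATRA and restimulated CTRL cells were given anti-CD3e for another 24 h after the co-culture; co-cultured ATRA and co-cultured CTRL cells were sorted straight after it, a state that the labels call exhaustion. Live cells carrying CD45.2 were sorted in every group. The age and number of the mice are not given in the labels.

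Progression from G1 into S phase depends on cyclin-dependent kinases, and cells hold these kinases in check with inhibitor proteins. The Cip/Kip inhibitors p21 (Cdkn1a) and p27 (Cdkn1b) bind cyclin-CDK complexes, whereas the INK4 inhibitors p16 (one product of Cdkn2a), p18 (Cdkn2c) and p19INK4d (Cdkn2d) bind CDK4 and CDK6. The transcription factor p53 switches on Cdkn1a, its own ubiquitin ligase Mdm2 and further genes after damage or stress, and p19ARF, the other product of Cdkn2a, holds Mdm2 back. In T cells p27 and p18 are known to limit division.

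Total counts ran from 16288111 to 20115836 per restimulated library and from 23558244 to 26111497 per co-cultured library, so that 3 counts, the floor used here, equal at most 0.184 CPM. CPM values here are counts relative to the library's total, scaled by edgeR's TMM factors. Within groups, log2 CPM correlated across genes at 0.976 to 0.984 after restimulation. Among co-cultured libraries, ATRA replicate 3 stood apart (0.948 and 0.962 with its partners, which correlated at 0.990), as did CTRL replicate 1 (0.978 and 0.980, against 0.993 for its partners). Results of the co-culture rest in part on these libraries. Values without them are given where a call or a size moved for the 10 genes or for counts over gene lists. Other genes named singly were not followed with libraries left out. Leaving out both together was chosen after seeing the data. That fit called 7980 genes after co-culture, against 4071 with all libraries, so a gene that passed only there is not set apart by it. The summed level of 10 proliferation markers was 1708 to 1742 CPM in restimulated ATRA cells, 6114 to 6141 CPM in restimulated CTRL cells, 3246, 2917 and 1494 CPM in co-cultured ATRA replicates 1, 2 and 3, and 4112 to 4259 CPM in co-cultured CTRL cells.

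The T cell label was borne out by Cd3e, at 165 to 218 CPM, and Cd8a, at 149 to 375 CPM, over the 12 libraries. Of 12 genes listed as glioma markers, Gfap and Olig2 had no count in any restimulated library and no row in the co-culture counts. Vim, which T cells also express, made up most of the list's sum. That sum was 985 to 1045 CPM in restimulated ATRA cells, 850 to 1047 CPM in restimulated CTRL cells, 1396 to 1563 CPM in co-cultured ATRA cells and 885 to 963 CPM in co-cultured CTRL cells. After co-culture Loxl2 (log2 fold change 3.13), Vim (0.78) and Fn1 were higher in ATRA than in CTRL cells, and Igfbp7 (-5.86) and Axl (-1.19) were lower. Col1a1, Col1a2, Sparc and Nes were too low to be tested there. Col1a1 was at 0.252 to 4.62 CPM in co-cultured ATRA and 0 to 0.195 CPM in co-cultured CTRL cells. Col1a2 was at 0.379 to 1.77 and 0 to 0.0374 CPM in these groups. Sparc averaged 0.165 and 0.0125 CPM in them, and Nes 0.181 and 0.300 CPM. Fn1 was at 2.14 to 6.56 CPM in co-cultured ATRA and 0 to 0.224 CPM in co-cultured CTRL cells. Igfbp7 was at 0.302 to 0.663 CPM in co-cultured ATRA cells. Fn1 passed the filter on low counts only through the co-cultured ATRA libraries, and Igfbp7 only through the co-cultured CTRL libraries. A set of 5 B cell markers summed to 12.3 to 12.9 CPM in restimulated ATRA cells, 4.15 to 5.27 CPM in restimulated CTRL cells, 4.83 to 9.37 CPM in co-cultured ATRA cells and 6.95 to 16.5 CPM in co-cultured CTRL cells. The 6 NK cell markers summed to 20.9 to 25.9 CPM in restimulated ATRA, 13.2 to 27.6 CPM in restimulated CTRL, 9.80 to 11.6 CPM in co-cultured ATRA and 33.0 to 42.7 CPM in co-cultured CTRL cells. The 7 myeloid markers summed to 23.1 to 24.1 CPM in restimulated ATRA, 11.6 to 17.0 CPM in restimulated CTRL, 19.9 to 24.2 CPM in co-cultured ATRA and 12.3 to 13.4 CPM in co-cultured CTRL cells. The 4 CD4 T cell markers summed to 23.7 to 26.5 CPM in restimulated ATRA, 19.2 to 25.0 CPM in restimulated CTRL, 74.4 to 77.6 CPM in co-cultured ATRA and 40.7 to 46.5 CPM in co-cultured CTRL cells. Most of these sums came from Eomes, Cd68 and Zbtb7b, which after co-culture were at log2 fold changes of -1.55, 0.84 and 0.84 in ATRA over CTRL cells (edgeR adjusted p = 0.00133, 0.00795 and 0.00187). Csf1r and S100a8 had no count in any restimulated library, and Cd4 was at 0 to 1.22 CPM over the 12 libraries. Of the low myeloid genes, Itgam was at 2.79 and Cd14 at -2.15 in ATRA over CTRL cells after co-culture (edgeR adjusted p = 0.0107 and 0.0420). Itgam reached 2.46 CPM at most in co-cultured ATRA cells. It passed the filter on low counts only through those libraries, and Cd14 only through the co-cultured CTRL libraries. The part of other cells in the results was not tested. Fewer cells of a type and less RNA per cell cannot be told apart in such bulk samples. Separate mice or cultures are not named for the replicates, so the p-values measure the spread between these libraries.

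Promoter windows were searched for 5 short motifs, among them a p53 half-site, and sequence outside the windows was not searched. RefSeq's table for build GRCm38.p6 held 13 promoter windows of 9 of the genes, each running from 250 bases before to 50 bases after an annotated start; Trp53inp1 had no entry. The deposited counts were made on mm39, so these windows serve for their letters only. The p53 half-site decamer was found in 4 of the 13 windows, those of Cdkn1a, Cdkn2d, Ccng1 and Mdm2, and in 8.36% of 32851 mouse promoter windows of the same length. These 4 are printed 5' to 3' on the gene's strand, with matches in capitals. In Mdm2 the second run of capitals is an E2F core (TTTNNCGC, on the other strand) that overlaps a FOXO core (GTAAACA); all other capitals are p53 half-sites, which read as matches on both strands.
Cdkn1a, chr17:29090729-29091028, plus strand: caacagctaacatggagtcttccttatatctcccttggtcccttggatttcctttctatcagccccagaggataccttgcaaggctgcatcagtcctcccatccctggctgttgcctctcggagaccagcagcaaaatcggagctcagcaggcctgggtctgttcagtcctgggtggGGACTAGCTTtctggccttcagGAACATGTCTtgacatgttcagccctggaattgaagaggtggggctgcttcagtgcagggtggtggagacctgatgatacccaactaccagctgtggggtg
Cdkn2d, chr9:21291160-21291459, minus strand: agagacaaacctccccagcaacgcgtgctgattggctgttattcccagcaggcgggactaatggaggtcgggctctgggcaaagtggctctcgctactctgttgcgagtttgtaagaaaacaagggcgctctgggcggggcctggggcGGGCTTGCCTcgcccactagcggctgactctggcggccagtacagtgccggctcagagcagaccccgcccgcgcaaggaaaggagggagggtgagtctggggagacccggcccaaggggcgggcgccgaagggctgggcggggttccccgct
Ccng1, chr11:40755237-40755536, minus strand: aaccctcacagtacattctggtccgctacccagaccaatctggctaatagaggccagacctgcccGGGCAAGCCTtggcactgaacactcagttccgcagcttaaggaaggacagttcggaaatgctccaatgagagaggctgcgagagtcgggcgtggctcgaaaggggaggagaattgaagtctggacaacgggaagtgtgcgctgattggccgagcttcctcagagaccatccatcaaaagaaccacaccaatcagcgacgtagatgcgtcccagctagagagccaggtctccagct
Mdm2, chr10:117710709-117711008, minus strand: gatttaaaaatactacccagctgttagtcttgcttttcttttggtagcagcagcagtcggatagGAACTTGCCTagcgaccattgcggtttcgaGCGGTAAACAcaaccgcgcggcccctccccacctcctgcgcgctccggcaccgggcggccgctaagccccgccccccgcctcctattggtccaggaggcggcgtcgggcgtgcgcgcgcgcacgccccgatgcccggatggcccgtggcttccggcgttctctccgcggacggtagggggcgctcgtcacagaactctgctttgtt
Of the 2 windows of Cdkn1a only the upstream one, printed here, held the half-site; the other held none of the motifs. In the printed window the decamers GGACTAGCTT and GAACATGTCT began at positions -73 and -51 relative to the start site. Plk2, Cdkn1b and both windows of Trp73 held none of the 5 motifs searched, which says only that these letters are not in these windows. The nuclear receptor half-site AGGTCA, the kind of element that retinoic acid receptors bind in pairs, was in 1 window each of Cdkn2a and Cdkn2c, and in 16.3% of all windows. The E2F core was in 3 of the 13 windows (both of Cdkn2a and that of Mdm2; 5.17% of all windows), the FOXO core in 1 (Mdm2; 3.65%) and the E-box CACGTG in 1 (Cdkn2c; 7.15%). All motifs were searched on both strands.

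After co-culture, Cdkn1a, Cdkn1b, Cdkn2d and Trp53inp1 were higher and Cdkn2c and Plk2 lower in ATRA than in CTRL cells (edgeR's quasi-likelihood test, adjusted p under 0.05 over 12111 genes). That is 4 of 10 higher and 2 of 10 lower, where 33.6% of all tested genes were called, 18.1% higher and 15.5% lower. After restimulation, Cdkn1a, Cdkn2d, Plk2 and Mdm2 were higher and Cdkn2a, Cdkn2c and Trp73 lower in ATRA than in CTRL cells, which is 4 and 3 of 10, where 62.6% of 12783 genes were called, 31.8% higher and 30.8% lower. The shares after restimulation were thus close to those of all genes. Groups did not overlap for 8 of the 10 genes after co-culture (57.0% of all genes) and for 7 of the 10 after restimulation (68.8% of all genes). The median log2 fold change of the 10 genes was 0.50 after co-culture, beside 0.01 over all tested genes, and 0.16 after restimulation, beside 0.02. The plot of every library shows that Cdkn1a and Cdkn2d stayed on one side in both states while Plk2 changed sides.

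**Figure D1:**
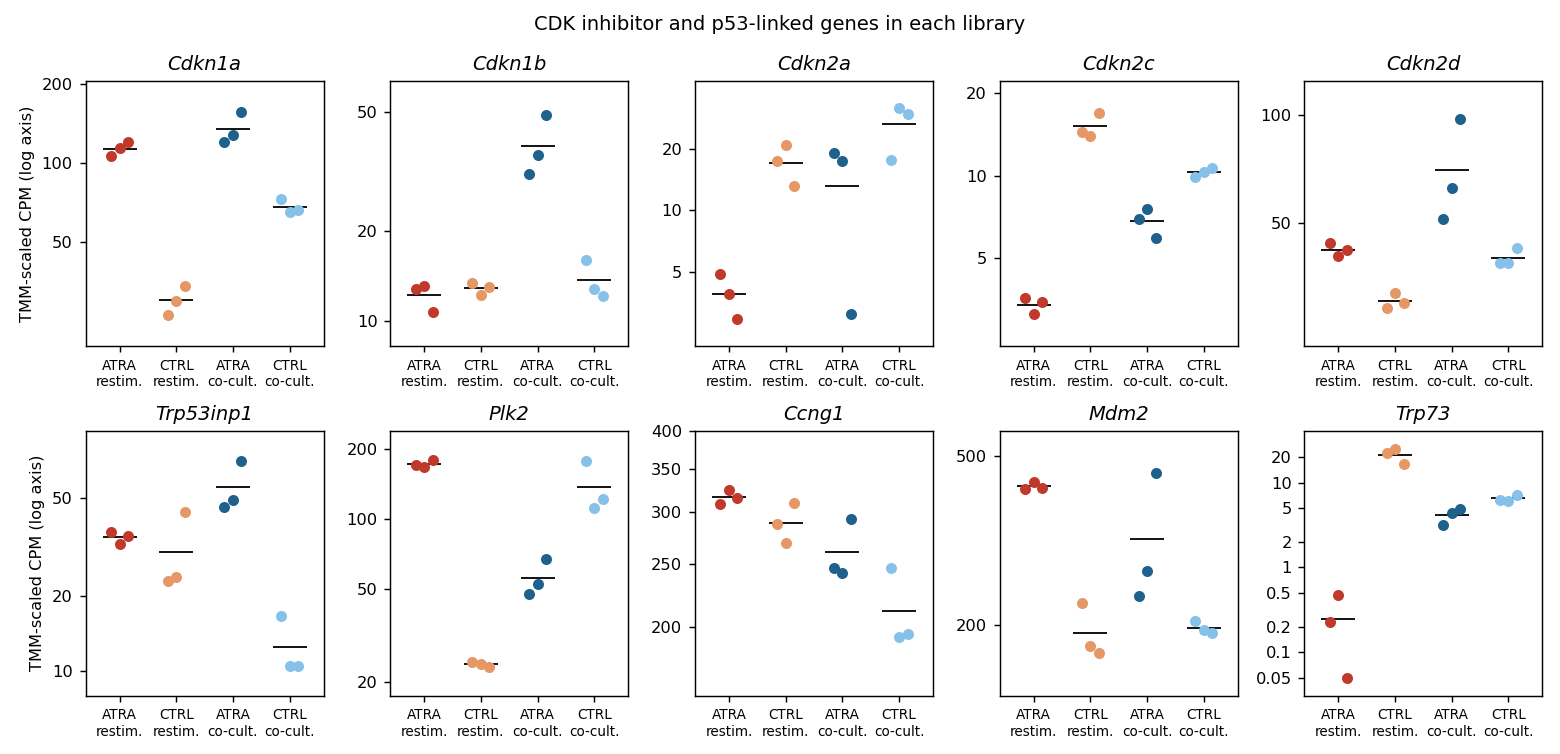
TMM-scaled CPM (log axis, its own range in each panel) of the 10 genes in each of 12 libraries; points are replicates 1 to 3 from left to right and bars are group means. Plk2 was at 168 to 181 CPM in restimulated ATRA and 23.2 to 24.2 CPM in restimulated CTRL cells, but at 47.6 to 67.4 CPM in co-cultured ATRA and 112 to 178 CPM in co-cultured CTRL cells.

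Cdkn1a, encoding p21, was higher in ATRA cells in both states. It stood at 106, 114 and 120 CPM in restimulated ATRA replicates 1, 2 and 3, against 26.3, 29.8 and 33.8 CPM in restimulated CTRL cells. After co-culture it stood at 120, 127 and 156 CPM in ATRA cells, against 72.7, 65.2 and 66.2 CPM in CTRL cells. Every ATRA library exceeded every CTRL library of its state, and the lowest levels of all were those of restimulated CTRL cells. The log2 fold change was 1.92 after restimulation (SE 0.10, 3.79-fold, edgeR adjusted p = 1.37e-08) and 0.98 after co-culture (SE 0.13, 1.98-fold, edgeR adjusted p = 0.00322). The effect after restimulation exceeded that after co-culture by 0.93 (SE 0.18, edgeR interaction adjusted p = 0.000938), and the co-culture effect without the libraries that stood apart was 0.92. An antisense transcript, AC167363.2, shares 273 exon bases with Cdkn1a in GENCODE M21; the library kit marks strand, but whether counting used it is not given in the sources used here.

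Cdkn1b, encoding p27, was raised in co-cultured ATRA cells. It measured 31.0, 35.8 and 48.8 CPM in co-cultured ATRA replicates 1, 2 and 3, against 16.0, 12.8 and 12.2 CPM in co-cultured CTRL cells. In restimulated cells it measured 12.8, 13.1 and 10.7 CPM with ATRA, against 13.4, 12.2 and 13.0 CPM in CTRL. The co-cultured ATRA libraries lay above all 9 others, and the restimulated groups overlapped. ATRA over CTRL gave a log2 fold change of 1.49 after co-culture (SE 0.21, 2.82-fold, edgeR adjusted p = 0.00386). After restimulation it was -0.08 (95% interval -0.41 to 0.25, edgeR adjusted p = 0.660), and the effects differed by -1.58 between the states (SE 0.25, edgeR interaction adjusted p = 0.000308).

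Cdkn2a, whose counts merge the transcripts of p16INK4a and p19ARF, was lower in restimulated ATRA cells. It read 4.93, 3.92 and 2.96 CPM in restimulated ATRA replicates, against 17.3, 20.7 and 13.2 CPM in restimulated CTRL cells. Co-cultured ATRA cells gave 19.1, 17.5 and 3.15 CPM, against 17.6, 31.5 and 29.6 CPM in co-cultured CTRL cells. The restimulated groups were apart, whereas co-cultured ATRA replicate 3 lay far below its partners and CTRL replicate 1 lay among the ATRA values. On the log2 scale, ATRA over CTRL was -2.12 after restimulation (SE 0.23, 4.34-fold lower, edgeR adjusted p = 6.67e-06). After co-culture it was -0.99 with a 95% interval of -2.43 to 0.45 (edgeR adjusted p = 0.234). Without co-cultured CTRL replicate 1 and ATRA replicate 3, a choice made after seeing the data, it was -0.73 (edgeR adjusted p = 9.996e-06). That choice takes out the 2 values that overlapped the other group's range or lay far from it, and it called 7980 genes, against 4071 with all libraries. The difference between states was -1.13 (SE 0.70, edgeR interaction adjusted p = 0.206), -1.59 without co-cultured ATRA replicate 3 (adjusted p = 0.00214) and -1.37 without CTRL replicate 1 as well (adjusted p = 0.000472).

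Cdkn2c, encoding p18, was the INK4 gene lowered by ATRA in both states. Restimulated ATRA replicates held 3.58, 3.14 and 3.46 CPM, against 14.4, 13.9 and 16.9 CPM in restimulated CTRL cells. Co-cultured ATRA replicates held 6.98, 7.57 and 5.91 CPM, against 9.88, 10.3 and 10.6 CPM in co-cultured CTRL cells. The 4 groups did not overlap one another. The log2 fold change was -2.15 after restimulation (SE 0.18, 4.44-fold lower, edgeR adjusted p = 6.60e-07) and -0.59 after co-culture (SE 0.16, 1.51-fold lower, edgeR adjusted p = 0.0313), a difference of -1.56 (SE 0.21, edgeR interaction adjusted p = 9.49e-05). The co-culture call was lost with the replicate number as a block (-0.60, adjusted p = 0.0841) and without any single library other than ATRA replicate 3 (adjusted p = 0.0552 to 0.120), while the fold change stayed between -0.67 and -0.50.

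Cdkn2d, encoding p19INK4d, moved the other way from its INK4 relatives. It reached 44.2, 40.5 and 42.1 CPM in restimulated ATRA replicates, against 29.1, 32.1 and 30.0 CPM in restimulated CTRL cells. It reached 51.2, 62.7 and 97.2 CPM in co-cultured ATRA replicates, against 38.7, 38.8 and 42.6 CPM in co-cultured CTRL cells. ATRA libraries were above CTRL libraries in both states, with co-cultured ATRA replicate 3 the highest of all. ATRA over CTRL gave a log2 fold change of 0.47 after restimulation (SE 0.10, 1.39-fold, edgeR adjusted p = 0.00115) and 0.81 after co-culture (SE 0.23, 1.76-fold, edgeR adjusted p = 0.0376), and the difference of -0.35 did not pass the test (95% interval -0.93 to 0.23, edgeR interaction adjusted p = 0.301). The co-culture call was lost without ATRA replicate 2 or any CTRL replicate (adjusted p = 0.0706 to 0.121), and the effect was 0.51 without ATRA replicate 3. The call after restimulation was lost in a fit of all 12 libraries (0.47, adjusted p = 0.0546).

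Cdkn2a, Cdkn2c and Trp73 were picked here as the 3 genes lower in restimulated ATRA than in restimulated CTRL cells. That they lay below restimulated CTRL cells there thus follows from the choice. All 3 averaged lowest in restimulated ATRA cells, where the proliferation markers also summed lowest on average. Cdkn2c and Trp73 averaged highest in restimulated CTRL cells, where those markers summed highest. Cdkn2a averaged highest in co-cultured CTRL cells (26.2 CPM, against 17.1 CPM in restimulated CTRL cells). In co-cultured ATRA replicate 3, the library with the lowest marker sum, Cdkn2a was at 3.15 CPM, Cdkn2c at 5.91 CPM and Trp73 at 4.92 CPM. Their means in restimulated ATRA cells were 3.94, 3.40 and 0.248 CPM. Among the co-cultured ATRA replicates, replicate 3 was the lowest for Cdkn2a and Cdkn2c and the highest for Trp73. The part of cycling cells in these differences was not tested.

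Mdm2, the ubiquitin ligase that p53 induces and that degrades p53, was higher in restimulated ATRA cells. It stood at 419, 435 and 420 CPM there, against 226, 179 and 172 CPM in restimulated CTRL cells. After co-culture it stood at 234, 268 and 456 CPM in ATRA replicates 1, 2 and 3, against 204, 195 and 192 CPM in CTRL cells. ATRA libraries exceeded CTRL libraries in both states, but the co-cultured ATRA mean rested largely on replicate 3. On the log2 scale, ATRA over CTRL was 1.15 after restimulation (SE 0.10, 2.21-fold, edgeR adjusted p = 1.21e-06) and 0.70 after co-culture (SE 0.25, edgeR adjusted p = 0.0679). The co-culture value passed the test without ATRA replicate 3, at 0.35 (adjusted p = 0.0124), without ATRA replicate 1, at 0.88 (adjusted p = 0.0311), and without both libraries that stood apart, at 0.39 (adjusted p = 7.41e-05). The difference between states was 0.44 (SE 0.29, edgeR interaction adjusted p = 0.238), 0.80 without co-cultured ATRA replicate 3 (adjusted p = 0.000184) and 0.77 without CTRL replicate 1 as well (adjusted p = 0.000259).

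Ccng1, encoding cyclin G1, a p53 target that recruits a phosphatase to Mdm2, was high throughout and passed the test in neither ATRA comparison. It measured 309, 325 and 315 CPM in restimulated ATRA replicates, against 288, 269 and 310 CPM in restimulated CTRL cells. It measured 247, 243 and 293 CPM in co-cultured ATRA replicates, against 247, 193 and 196 CPM in co-cultured CTRL cells. The groups overlapped in both states. The log2 fold change was 0.13 after restimulation (95% interval -0.02 to 0.28, edgeR adjusted p = 0.111) and 0.30 after co-culture (95% interval -0.03 to 0.62, edgeR adjusted p = 0.129). It passed the test without restimulated CTRL replicate 3 (0.17, adjusted p = 0.0331) and, after co-culture, without CTRL replicate 1 (0.43, adjusted p = 0.0491) or without both libraries that stood apart (0.34, adjusted p = 2.08e-05). On deposited TPM the sign after restimulation was the opposite (-0.12, limma adjusted p = 0.311).

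Plk2, a polo-like kinase that p53 and growth signals induce, went opposite ways in the 2 states. It was at 171, 168 and 181 CPM in restimulated ATRA replicates, against 24.2, 24.0 and 23.2 CPM in restimulated CTRL cells. It was at 47.6, 52.7 and 67.4 CPM in co-cultured ATRA replicates, against 178, 112 and 122 CPM in co-cultured CTRL cells. The groups were far apart in each state, with the order turned round. ATRA over CTRL gave a log2 fold change of 2.87 after restimulation (SE 0.08, 7.29-fold, edgeR adjusted p = 7.82e-11), which ranked 20 of 12783 genes by p. After co-culture it was -1.30 (SE 0.22, 2.45-fold lower, edgeR adjusted p = 0.00714). The difference of 4.15 (SE 0.25, edgeR interaction adjusted p = 1.56e-07) was 4.09 without the libraries that stood apart.

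Trp53inp1, a p53-induced protein that takes part in autophagy and stress responses, was higher in co-cultured ATRA cells. It stood at 45.7, 48.8 and 70.4 CPM there, against 16.6, 10.5 and 10.5 CPM in co-cultured CTRL cells. After restimulation it stood at 36.3, 32.4 and 34.9 CPM in ATRA replicates, against 23.0, 24.0 and 43.8 CPM in CTRL cells. The co-cultured groups were apart, whereas restimulated CTRL replicate 3 lay above all restimulated ATRA libraries. On the log2 scale, ATRA over CTRL was 2.13 after co-culture (SE 0.26, 4.38-fold, edgeR adjusted p = 0.00253) and 0.19 after restimulation (95% interval -0.37 to 0.75, edgeR adjusted p = 0.529), a difference of -1.95 (SE 0.38, edgeR interaction adjusted p = 0.00134). Without restimulated CTRL replicate 3 the value after restimulation was 0.55 and passed the test (adjusted p = 0.00141).

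Trp73, encoding p73, a relative of p53 with transcripts from an upstream and an internal promoter, was nearly silent in restimulated ATRA cells. It had 4, 9 and 1 counts there (0.224, 0.471 and 0.0502 CPM), against 394, 408 and 307 counts in restimulated CTRL cells (22.1, 24.9 and 16.5 CPM). Summed over 3 libraries each, 14 counts stood against 1109, and relative to TMM-scaled library sizes it was 85.4-fold lower in restimulated ATRA cells, with an exact 95% interval of 50.7 to 157 that covers counting error only. After co-culture it gave 3.16, 4.33 and 4.92 CPM in ATRA replicates, against 6.21, 6.06 and 7.20 CPM in CTRL cells. Groups did not overlap in either state. The fitted log2 fold change after restimulation was -6.39 (SE 0.39, edgeR adjusted p = 1.29e-07), and the gene passed the filter on low counts only through the restimulated CTRL libraries. After co-culture it was -0.65 (SE 0.22, edgeR adjusted p = 0.0635), -0.80 without ATRA replicate 3 (adjusted p = 0.0217) and -0.82 without CTRL replicate 1 as well (adjusted p = 0.00323). The effects differed by -5.75 (SE 0.52, edgeR interaction adjusted p = 3.85e-06). The antisense gene Trp73os shares 280 exon bases with Trp73 in GENCODE M21, and its part in these counts was not tested.

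**Figure D2:**
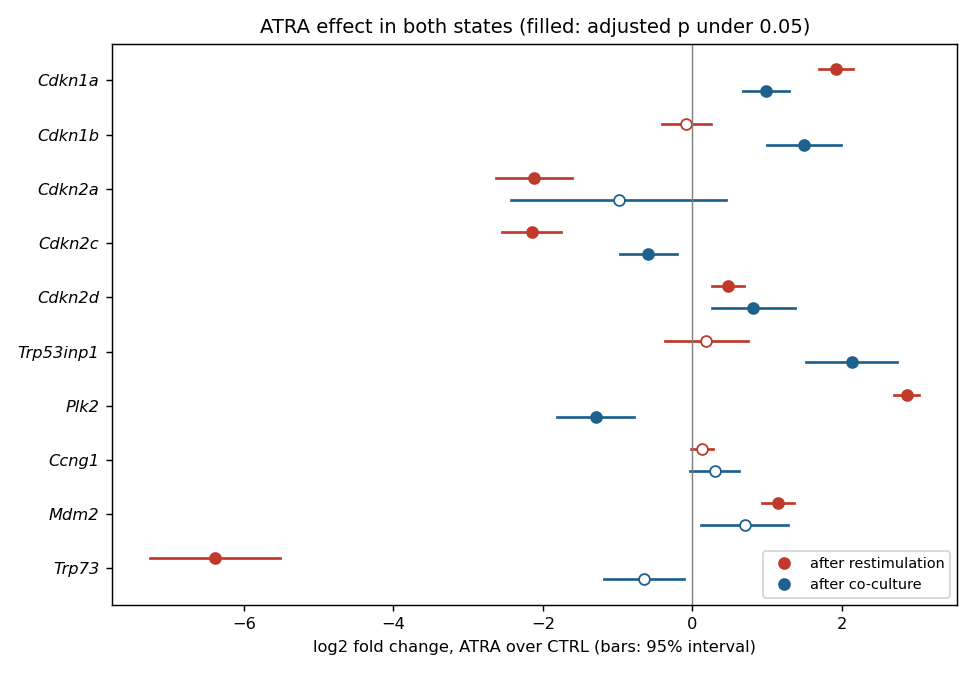
Log2 fold change of ATRA over CTRL for each gene, after restimulation (upper mark of each pair) and after co-culture (lower mark), with 95% intervals from edgeR; filled marks have an adjusted p under 0.05. Plk2 lies at 2.87 and -1.30, Trp73 at -6.39 and -0.65, and Cdkn1a at 1.92 and 0.98.

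The ATRA effect differed between the states for 6 of the 10 genes. The effect was more positive after restimulation for Cdkn1a and Plk2 and more negative for Cdkn1b, Cdkn2c, Trp53inp1 and Trp73, which is 2 of 10 and 4 of 10, where 49.2% of 12364 genes were called, 23.6% and 25.5% in these directions. The median difference of the 10 genes was -0.74, beside -0.07 over all tested genes. Restimulation, the set of batches in the labels (1_1 to 1_3 after co-culture, 2_1 to 2_3 after restimulation) and the count table cannot be told apart, so a level set across states is a description. This difference of effects compares ATRA with CTRL inside each set.

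Within ATRA cells, restimulated over co-cultured, Plk2 was called higher (log2 1.53, edgeR adjusted p = 1.05e-05) and 7 genes lower. The lower ones ran from Cdkn1a at -0.35 (adjusted p = 0.0268) to Trp73 at -4.14 (adjusted p = 5.56e-06), with Cdkn1b, the p27 gene, at -1.77 (adjusted p = 5.83e-06). Of all genes, 61.3% were called, 29.8% higher and 31.5% lower, and the libraries of 7 of the 10 genes did not overlap, beside 67.1% of all genes. The calls of Cdkn1a and Trp53inp1 (-0.78, adjusted p = 0.0243) were lost without co-cultured ATRA replicate 3 (-0.21 with adjusted p = 0.0739, and -0.54 with adjusted p = 0.0952), and also, for Cdkn1a, without restimulated ATRA replicate 1 or 2 (adjusted p = 0.0968 and 0.0623) or with library totals only (-0.18, adjusted p = 0.131) and, for Trp53inp1, without restimulated ATRA replicate 2 or 3 (adjusted p = 0.0730 and 0.0576). Without co-cultured ATRA replicate 3, Mdm2 (0.67, adjusted p = 5.73e-05) and Ccng1 (0.28, adjusted p = 0.0218) were called higher as well. Without co-cultured CTRL replicate 1 too, Mdm2 was at 0.66, Ccng1 at 0.28 and Trp53inp1 at -0.55 (adjusted p = 3.75e-05, 0.00121 and 0.0509).

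Within CTRL cells, restimulated over co-cultured, Trp73 (log2 1.61, edgeR adjusted p = 0.00149), Trp53inp1 (1.17, adjusted p = 0.00690), Cdkn2c (0.46, adjusted p = 0.0322) and Ccng1 (0.35, adjusted p = 0.0326) were called higher. Plk2 (-2.62, adjusted p = 7.55e-07) and Cdkn1a (-1.28, adjusted p = 1.53e-05) were called lower. Of all genes, 32.5% were called, 15.9% higher and 16.6% lower, and the libraries of 7 of the 10 genes did not overlap, beside 51.5% of all genes. The calls of Cdkn2c and Ccng1 were lost without restimulated CTRL replicate 1 or 3 and without co-cultured CTRL replicate 2 or 3 (adjusted p = 0.0541 to 0.128), and that of Cdkn2c also without co-cultured CTRL replicate 1 (adjusted p = 0.0788). Without both co-cultured libraries that stood apart, Cdkn2a (-0.94, adjusted p = 0.000482) and Cdkn2d (-0.52, adjusted p = 0.000668) were called lower too. DESeq2 with all libraries kept also called Cdkn2d lower (adjusted p = 0.0392).

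Levels of different genes were set side by side in TPM, which corrects for transcript length and was deposited for restimulated cells. In restimulated ATRA cells Ccng1 led at 339 ± 20.4 TPM (SD, n = 3), followed by Mdm2 at 294 ± 8.64 TPM, Cdkn1a at 186 ± 13.6 TPM, Cdkn2d at 90.4 ± 3.41 TPM and Plk2 at 83.5 ± 1.24 TPM. Trp53inp1 was at 41.3 ± 5.13 TPM, Cdkn1b at 13.3 ± 1.76 TPM, Cdkn2a at 7.44 ± 1.61 TPM, Cdkn2c at 4.89 ± 0.53 TPM and Trp73 at 0.396 ± 0.380 TPM. The libraries of neighbours in this order did not overlap.

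In restimulated CTRL cells Ccng1 led at 369 ± 36.2 TPM (SD, n = 3), then Mdm2 at 123 ± 20.4 TPM and Cdkn2d at 57.9 ± 2.92 TPM, with Cdkn1a only the fourth at 45.8 ± 7.43 TPM. Trp53inp1, at 35.8 ± 15.9 TPM, overlapped Cdkn1a above it and Cdkn2a (25.9 ± 3.47 TPM) below it. Trp73 at 22.6 ± 4.78 TPM overlapped Cdkn2a and Cdkn2c (21.7 ± 2.40 TPM), and Cdkn1b at 13.2 ± 0.26 TPM overlapped Plk2 at 12.3 ± 1.48 TPM. Among the INK4 genes Cdkn2d thus led in both groups.

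**Figure D3:**
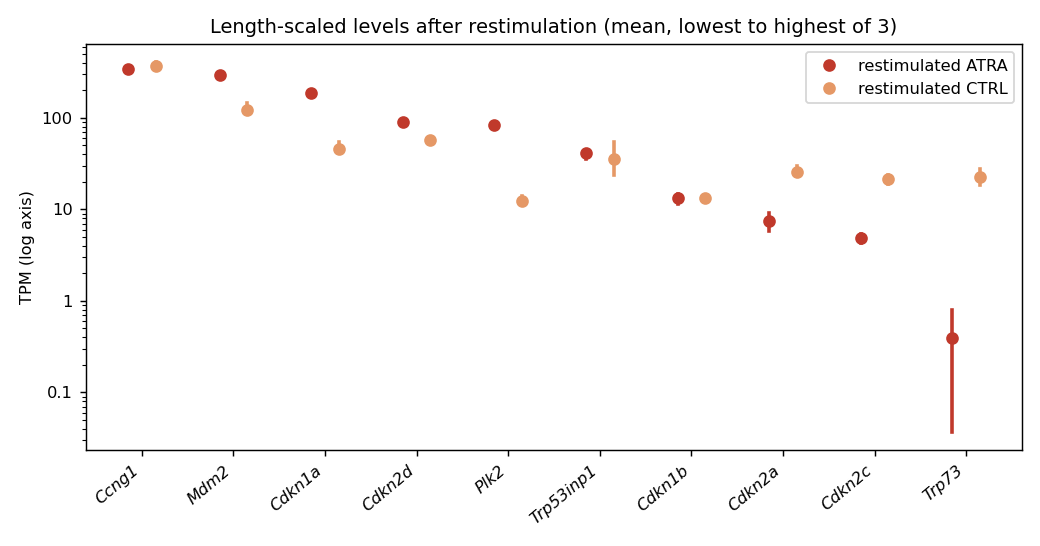
TPM (log axis) of the 10 genes in restimulated ATRA and restimulated CTRL cells, in the order of the ATRA means; points are means and lines run from the lowest to the highest of 3 libraries. Cdkn1a and Plk2 averaged 186 and 83.5 TPM in ATRA cells, against 45.8 and 12.3 TPM in CTRL cells, and Trp73 averaged 0.396 TPM in ATRA cells, against 22.6 TPM in CTRL cells.

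Trp53 itself, which encodes p53, was lower in ATRA cells. It averaged 111 ± 9.36 CPM in restimulated ATRA and 158 ± 18.1 CPM in restimulated CTRL cells (SD, n = 3 each; log2 fold change -0.51, edgeR adjusted p = 0.000453). It averaged 119 ± 0.82 CPM in co-cultured ATRA and 148 ± 7.16 CPM in co-cultured CTRL cells (SD, n = 3 each; log2 fold change -0.32, edgeR adjusted p = 0.0300). Whether this call holds with libraries left out was not tested. The groups did not overlap in either state.

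Among 41 further genes of the p53 pathway, 38 could be tested after co-culture and in ATRA cells 16 were higher and 5 were lower, where 18.1% and 15.5% of all genes were. Their median log2 fold change was 0.22, beside 0.01 over all genes. The smallest p values among the higher and lower genes belonged to the DNA repair factor Xpc (0.76), the xylulose reductase Dcxr (1.49), the polo-like kinase Plk3 (-2.23) and Trp53inp2, the paralog of Trp53inp1 (-1.72). The count of higher genes was 6 without co-cultured CTRL replicate 2 or 3, and that of lower genes 2 without either of them or ATRA replicate 2, and 3 with the replicate block. Without both co-cultured libraries that stood apart, 22 were higher and 9 lower, in a fit that called 7980 of all genes, against 4071 with all libraries.

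After restimulation 39 of the 41 were tested, and 16 were higher and 13 lower in ATRA cells, where 31.8% and 30.8% of all genes were, at a median of 0.21 beside 0.02. Here Plk3 (3.25) and the antiproliferative gene Btg2 (1.95) had the smallest p among the higher genes, and the damage kinase Atr (-1.69) and the mitotic protein Ckap2 (-2.03) among the lower ones. Plk3 stood at 239 to 248 CPM in restimulated ATRA and 21.7 to 28.0 CPM in restimulated CTRL cells, but at 18.6 to 27.8 CPM in co-cultured ATRA and 102 to 108 CPM in co-cultured CTRL cells, the same change of sides as Plk2. The difference of effects was 5.47 for Plk3 (SE 0.22, edgeR interaction adjusted p = 7.20e-09), and over the list 7 genes were called in the positive and 14 in the negative direction, beside 23.6% and 25.5% of all genes. The plot of both effects gene by gene places Plk2 with Plk3 and Trp53inp2.

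**Figure D4:**
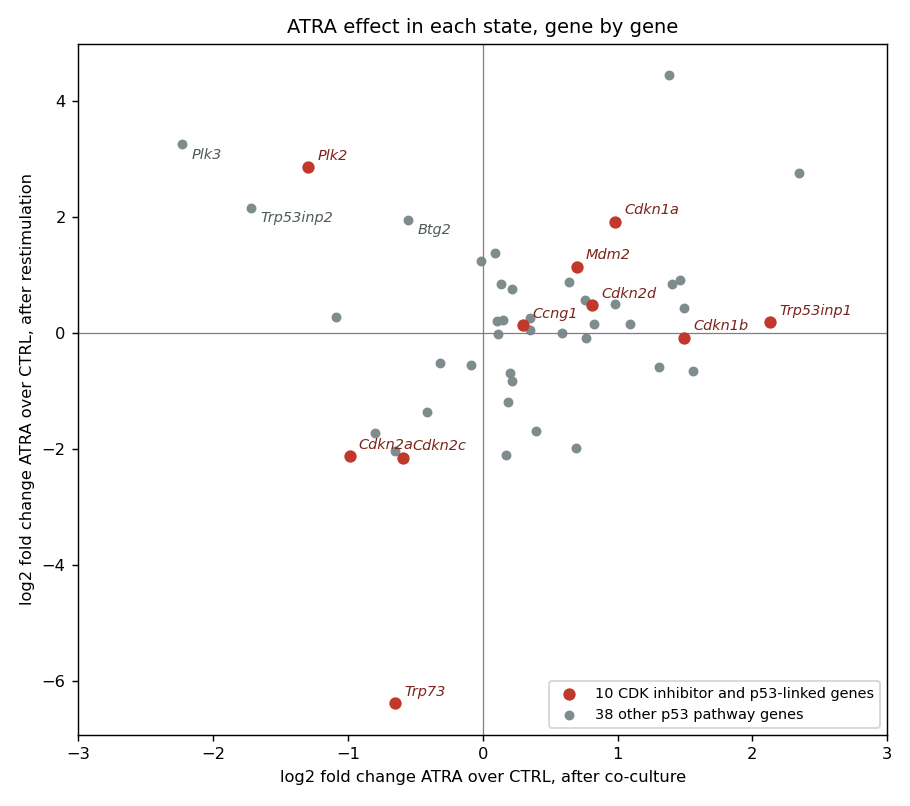
Log2 fold change of ATRA over CTRL after co-culture (horizontal) and after restimulation (vertical) for the 10 genes and for 38 other p53 pathway genes tested in both states. Plk2 (-1.30 and 2.87) lies in the upper left beside Plk3 (-2.23 and 3.25), and Cdkn1a (0.98 and 1.92) in the upper right.

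Of 24 genes for G1 cyclins, their kinases and the RB and E2F families, 23 were tested, and after restimulation 16 were lower and 1, cyclin D2 (Ccnd2, 0.67), higher in ATRA cells, where 30.8% and 31.8% of all genes were. Cyclin A2 (Ccna2, -2.11) and the repressor E2f8 (-2.29) had the smallest p among the lower ones, and the list's median was -0.80, beside 0.02 over all genes. The higher count was 2 without restimulated CTRL replicate 1 or 3 and with no filter on low counts. After co-culture 7 were lower and 4 higher, beside 15.5% and 18.1% of all genes, at a median of -0.31, beside 0.01. The smallest p belonged to cyclin D3 (Ccnd3, 0.83) and Rb1 (0.86) among the higher and to E2f7 (-0.89) and cyclin E1 (Ccne1, -0.97) among the lower genes. The lower count was 4 with the replicate block, 3 without ATRA replicate 2 or CTRL replicate 1, and fell to its lowest, 0, without CTRL replicate 2 or 3; the higher count was 2 without ATRA replicate 2 or CTRL replicate 2 or 3. Without both libraries that stood apart, 10 were lower and 8 higher, in a fit that called 7980 of all genes, against 4071 with all libraries. All 10 proliferation markers were lower in restimulated ATRA cells, with a median of -2.19, and Bub1, a spindle checkpoint kinase, was at -2.60. Mki67, the Ki-67 gene, averaged 455 ± 17.3 CPM in restimulated ATRA and 2466 ± 83.3 CPM in restimulated CTRL cells (SD, n = 3 each; log2 -2.44). After co-culture 2 of the 10 were called lower, Ccnb1 (-1.39) and Mki67 (-0.88). That count ran from 0 (with the replicate block, or without ATRA replicate 2 or CTRL replicate 2 or 3), over 1 without CTRL replicate 1, to 7 without ATRA replicate 3, and was 5 with DESeq2, 6 in the fit of all 12 libraries, 1 with library totals only and 9 without both libraries that stood apart.

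Of 25 genes that control CDK inhibitor levels or are controlled with them, 11 were higher and 2 lower in ATRA cells after co-culture, where 18.1% and 15.5% of all genes were, at a median of 0.19, beside 0.01. Klf2, a quiescence factor of T cells, had a fitted log2 fold change of 4.29, with 3.54 to 6.16 CPM in co-cultured ATRA and 0.112 to 0.478 CPM in co-cultured CTRL cells, where the floor is 0.127 CPM at most. It passed the filter on low counts only through the co-cultured ATRA libraries. Ppp1r13l, the p53 inhibitor iASPP, was at 2.13. The lower pair were Fbxw7 (-1.12) and Skp2 (-0.91), both F-box proteins, of which Skp2 marks p27 for degradation; the lower count was 8 without ATRA replicate 3 and 1 without ATRA replicate 2 or any CTRL replicate, and the higher count was 7 without any CTRL replicate. The lower count was 4 with DESeq2 and 6 in the fit of all 12 libraries. Without both libraries that stood apart 12 were higher and 9 lower, in a fit that called 7980 of all genes, against 4071 with all libraries. After restimulation 24 were tested, and 12 were higher and 8 lower, beside 31.8% and 30.8% of all genes, at a median of 0.37, beside 0.02. Bcl6 (2.57) and Runx1 (2.08), both transcription factors, had the smallest p among the higher genes, and Dtl (-2.03), which targets p21 for degradation, and Cks1b (-2.03), the partner of Skp2, among the lower ones.

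Further CDK inhibitor genes were low or less directly linked. Cdkn1c, encoding p57, had no count in any restimulated library and no row in the co-culture counts. Cdkn2b, encoding p15, averaged 0.462 ± 0.288 CPM in restimulated ATRA and 1.26 ± 0.20 CPM in restimulated CTRL cells (SD, n = 3 each; log2 fold change -1.44, edgeR adjusted p = 0.0377). It had 13, 3 and 10 counts in restimulated ATRA replicates 1, 2 and 3, and passed the filter on low counts only through the restimulated CTRL libraries. After co-culture it averaged 2.63 ± 1.82 CPM in ATRA and 3.87 ± 0.79 CPM in CTRL cells (SD, n = 3 each; log2 fold change -0.55, edgeR adjusted p = 0.509). Cdkn3, a phosphatase of CDKs that is high in mitosis, was at -2.08 after restimulation (edgeR adjusted p = 3.45e-08), the ARF-binding Cdkn2aip at 0.36 (adjusted p = 0.0157) and its relative Cdkn2aipnl at -1.04 (adjusted p = 3.92e-05). The call of Cdkn2aip, the list's only higher gene, was lost in the fit of all 12 libraries, on TPM with either pseudocount, and without restimulated ATRA replicate 1 or CTRL replicate 2.

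For Cdkn1a, Cdkn1b, Cdkn2c and Trp53inp1, the genes most alike over the 12 libraries were picked by Pearson's r of log2 CPM among 8406 or 8407 genes averaging at least 10 CPM; the libraries share group, batch and table, so r is a description. Closest to Cdkn1a were Kdm5b (0.995), Vegfa (0.994) and Kdm6b (0.992). Kdm5b averaged 287 CPM in restimulated ATRA, 53.5 CPM in restimulated CTRL, 396 CPM in co-cultured ATRA and 173 CPM in co-cultured CTRL cells. Closest to Cdkn1b were Khnyn (0.982), Appl2 (0.978) and Ezh1 (0.976), and Appl2 averaged 105 CPM in co-cultured ATRA cells and 14.5 to 19.2 CPM in the other groups. Closest to Cdkn2c were Cenpp (0.993), Nsmce2 (0.991) and Dnmt1 (0.987), with Dnmt1, the maintenance DNA methyltransferase, at 217 CPM in restimulated ATRA, 753 CPM in restimulated CTRL, 409 CPM in co-cultured ATRA and 520 CPM in co-cultured CTRL cells. Closest to Trp53inp1 were Parp10 (0.976), Rnf130 (0.971) and Pear1 (0.967).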

How the data were processed

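RNA from sorted cells was sequenced after TruSeq stranded total RNA preparation, per the labels' protocols. The authors deposited gene counts, 1 table for each state, and TPM for the restimulated state; the submitters' processing notes name build mm39 with STAR 2.7.11b, Salmon 1.10.3, cutadapt 5.0 and DESeq2 1.42.1, and how reads were counted is not given in the sources used here. Of the tables, that for restimulation held 35588 rows, of which 16386 were 0 throughout, and 32 repeated symbols, of which the row with the largest total was kept. The co-culture table held 13948 rows, each with at least 10 counts in all. TPM columns name their group but not the replicate.

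Counts were tested with edgeR 4.0.16 in R 4.3.3 (filterByExpr, TMM, robust quasi-likelihood fit), for each state alone and, for differences between states, over all 12 libraries, with Benjamini-Hochberg adjustment over all tested genes and a threshold of 0.05. The code was tested on simulated data. Alternatives were library totals, RLE factors, DESeq2 1.42.0, no filter, a replicate block, limma 3.58.1 on log2(TPM + 0.1) and log2(TPM + 1), a fit of all libraries, and leaving out libraries; leaving out CTRL replicate 1 and ATRA replicate 3 of the co-culture together was chosen after seeing the data. Replicate numbers match the batch in the labels, so they pair ATRA with CTRL. Deviations of same-numbered libraries correlated across genes at 0.13, -0.06 and 0.07 after co-culture and at -0.03, -0.10 and 0.04 after restimulation. No pair of replicates agreed within sampling noise (chi-square per degree of freedom at least 3.80).

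The members, lists and tests were chosen with earlier results of these data known. From each list of pathway and cell cycle genes (cell type markers aside) the 2 called genes with the smallest p in each direction were named for each ATRA comparison, plus Trp53 and Mki67. Cdkn2b and Cdkn1c, and the CPM of Plk3 and Klf2, were added after their values were seen. The same holds for Eomes, Cd68, Zbtb7b, Csf1r, S100a8, Cd4, Loxl2, Vim, Fn1, Igfbp7, Axl, Itgam and Cd14 of the marker lists. It also holds for Ebf1, Ms4a1, Cd79a, Cd79b, Col1a1, Col1a2, Nes and Sparc of those lists. A gene of the marker lists is not reported here.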

Additional observations from a re-analysis of the deposited data

Results flagged for a closer look

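For 6 genes the effect of ATRA differed between the states by edgeR's interaction test. The same test called 49.2% of all 12364 tested genes, so a call alone does not set these 6 apart. The log2 effect after restimulation minus that after co-culture was 4.15 for Plk2, where every ATRA library lay above every CTRL library after restimulation and below it after co-culture, and 0.93 for Cdkn1a, which was higher with ATRA in both states. It was -5.75 for Trp73, -1.56 for Cdkn2c, -1.58 for Cdkn1b and -1.95 for Trp53inp1. Trp73 and Cdkn2c were lower with ATRA in all 6 pairs of library numbers, whereas Cdkn1b and Trp53inp1 were called higher after co-culture and not called after restimulation. Leaving out any single library kept all 6 differences past the threshold.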

How the results depend on the processing

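Of 670 member results under alternatives, 609 kept direction and side of the threshold, 28 gained a call, 28 lost one and 5 changed sign. The sign changes concern uncalled values after restimulation: Ccng1 was at -0.12 on TPM with either pseudocount, and Cdkn1b at 0.00044 and 0.00094 on TPM with pseudocounts 0.1 and 1, and between -0.13 and 0.0089 with 1 library left out (above 0 without ATRA replicate 3). Genes called after co-culture numbered 4071; they ranged from 1613 (without CTRL replicate 3) to 5617 with 1 library left out, with 1772 without CTRL replicate 2, 2226 without ATRA replicate 2, and 7980 without CTRL replicate 1 and ATRA replicate 3. Members lower after co-culture numbered 2, with a range of 1 to 3 when 1 library was left out, 1 with the replicate block and 4 without both libraries. In restimulated over co-cultured ATRA cells, members higher numbered 1, with a range of 1 to 3, and 3 with library totals or without both libraries. In the CTRL comparison, members higher numbered 4, with a range of 2 to 4, and members lower 2, or 4 without both libraries. With the replicate block, 2892 genes were called after co-culture, 7751 after restimulation and 5403 for the difference; of the members' calls it changed that of Cdkn2c after co-culture and no other. Mdm2 and Trp73 after co-culture passed with DESeq2 (adjusted p = 0.0270 and 0.0303), Mdm2 and Ccng1 in the fit of all libraries (0.0172 and 0.0473) and Trp73 with library totals (0.0415). The causes were not tested. Depth limits Trp73 in restimulated ATRA cells, where the libraries held 1 to 9 counts.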
